A study of Mus musculus with 24 samples.

Results

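The genes described here encode the enzymes that cut extracellular matrix and the proteins that restrain them: the matrix metalloproteinases (MMPs), the ADAMTS proteases, the ADAMTS-like proteins and the tissue inhibitors of metalloproteinases (TIMPs). The family was chosen with earlier results of these data known. Its members were then taken by name, as every protein-coding gene whose symbol is Mmp, Adamts or Adamtsl with a number, or Timp1 to Timp4. This gave 51 genes of the 22053 entries in the file: 23 MMPs, 19 ADAMTS proteases, 5 ADAMTS-like genes and 4 TIMPs. Of these, 32 reached 1 FPKM (fragments mapped to a gene, scaled by transcript length and library total) in at least 4 libraries and were tested: 10 MMPs, 13 ADAMTS proteases, all 5 ADAMTS-like genes and all 4 TIMPs. The other 19 are accounted for by their levels only.

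Male mice, all labelled wild type, gave the skeletal stem and progenitor cells at postnatal day 10. All cells were sorted as negative for CD31, Ter119, CD45, Thy, 6C3 and CD105 and positive for CD200, and then split into EMB+ and EMB- cells by embigin, a surface protein. Vertebral cells (spine) were also split by GFP, which the series' design text ties to Zic1-cre, so GFP+ cells descend from cells in which that Cre was active. Long bone cells (femur and tibia) were all GFP-. This makes 3 sources (vertebral GFP+, vertebral GFP- and long bone), each with an EMB+ and an EMB- group of 4 libraries, 6 groups in all. The titles call the replicates biological but name no animals, and the p-values therefore measure only how far these libraries spread, which may be technical.

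MMPs are zinc proteases that are made as inactive precursors and cut collagens and other matrix proteins once their propeptide is removed. In growing bone, the collagenase MMP13 and the gelatinase MMP9 remove the cartilage around hypertrophic chondrocytes so that vessels and bone can follow. ADAMTS proteases include aggrecanases, which cut the cartilage proteoglycan aggrecan, and procollagen N-proteinases, which trim newly made fibrillar collagens. ADAMTS-like proteins resemble them without the protease domain and bind fibrillin microfibrils, and TIMPs bind active MMPs and block them.

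Emb RNA was 30.1 to 56.5 FPKM in the libraries of the EMB+ groups and at most 1.32 in those of the EMB- groups. That range includes the 4 vertebral GFP- EMB+ libraries, 44.4 to 55.3 FPKM, for which title and cell type label conflict; the cell type label set their group. Within groups, libraries correlated at 0.978 or above over genes, except that long bone EMB- replicate 4 fell to 0.925. Read depth is unknown, because FPKM keeps no counts. In sorted pools, fewer cells of a type and less RNA per cell cannot be told apart. Erythroid genes summed to 7300 to 12400 FPKM in vertebral GFP- EMB- and 20200 to 42600 in long bone EMB- libraries. Any other library held at most 979 FPKM. The part of erythroid RNA in results that use these EMB- groups was not tested. Cartilage markers were high throughout: the chondrocyte list summed to between 28300 and 59900 FPKM in every library. Most of that sum was Col2a1, with group means of 27500 to 52000 FPKM. Osteoblast markers were present too and summed to between 3200 and 25300 FPKM. Col10a1, the collagen of hypertrophic cartilage, averaged 122, 142 and 298 FPKM in the 3 EMB+ groups against 2.75, 2.84 and 23.6 in the matching EMB- groups.

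Of the MMP genes, 10 lie side by side on chromosome 9, from 7272514 to 7699585 (GRCm38), and their start regions are shown because a single member of this cluster, Mmp13, was abundant while its neighbours carry a like sequence. The windows are RefSeq promoters (GRCm38.p6) of 250 bases before to 50 bases after the start, found for 36 of the 51 members, and the 140 bases printed run from 130 before the start site, 5′ to 3′ on the plus strand. Capitals mark matches to the AP-1 motif TGANTCA, which reads alike on both strands, and to the RUNX motif TGTGGT or ACCACA on its other strand; no motif overlaps another here.
Mmp13 (chr9:7272384-7272523): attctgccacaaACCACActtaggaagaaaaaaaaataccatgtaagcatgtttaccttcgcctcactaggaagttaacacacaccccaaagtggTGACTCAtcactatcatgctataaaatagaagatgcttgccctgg
Mmp3 (chr9:7445692-7445831): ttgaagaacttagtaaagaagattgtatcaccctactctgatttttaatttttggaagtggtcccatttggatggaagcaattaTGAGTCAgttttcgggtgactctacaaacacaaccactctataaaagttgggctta
Mmp10 (chr9:7502212-7502351): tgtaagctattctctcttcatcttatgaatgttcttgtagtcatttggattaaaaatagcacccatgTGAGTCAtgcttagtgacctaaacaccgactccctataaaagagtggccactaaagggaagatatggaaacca
Mmp1a (chr9:7464011-7464150): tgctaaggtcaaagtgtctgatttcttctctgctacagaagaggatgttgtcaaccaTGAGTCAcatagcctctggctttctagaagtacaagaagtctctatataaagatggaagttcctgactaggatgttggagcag
Mmp7 (chr9:7691960-7692099): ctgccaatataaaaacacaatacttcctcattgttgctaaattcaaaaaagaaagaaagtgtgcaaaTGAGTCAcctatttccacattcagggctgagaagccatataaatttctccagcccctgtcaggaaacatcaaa
Mmp8 (chr9:7558299-7558438): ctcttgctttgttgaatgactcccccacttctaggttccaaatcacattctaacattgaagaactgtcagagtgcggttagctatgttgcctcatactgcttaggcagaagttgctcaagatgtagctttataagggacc

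In Mmp13 the AP-1 match starts 35 bases and the RUNX match 118 bases before the start site. The other matches start 46 (Mmp3), 63 (Mmp10), 73 (Mmp1a) and 63 (Mmp7) bases before it, and the window of Mmp8 holds no match. Of the 10 cluster genes, 8 hold the AP-1 motif in the 300-base window, namely Mmp13, Mmp12, Mmp1b, Mmp3, Mmp1a, Mmp10, Mmp20 and Mmp7. None of the 26 other members with a window does, and 7.81% of all 32851 windows in the table do. The RUNX motif is in the windows of 6 members (Mmp13, Mmp14, Mmp1b, Mmp23, Mmp27 and Mmp7) and in 16.8% of all windows; both motifs together are in Mmp13 and Mmp1b and in 1.42% of all windows. A match describes these letters and no more.

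RNA levels within the cluster ranged widely. Mmp13 averaged between 9.80 and 346 FPKM across the 6 groups. Mmp3, which encodes stromelysin-1, averaged between 1.16 and 5.32 FPKM and Mmp8, the collagenase best known from neutrophils, between 0.403 and 4.496. Mmp10 reached 0.767 FPKM in its highest library and averaged 0.507 in long bone EMB+ cells against at most 0.126 in every other group. Mmp12 was listed at 0 in 20 of the 24 libraries and Mmp27 in 23. Mmp1a, Mmp1b, Mmp7 and Mmp20 (the last known as an enamel protease) were listed at 0 in all 24; all 4 hold the AP-1 motif.

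**Figure D1:**
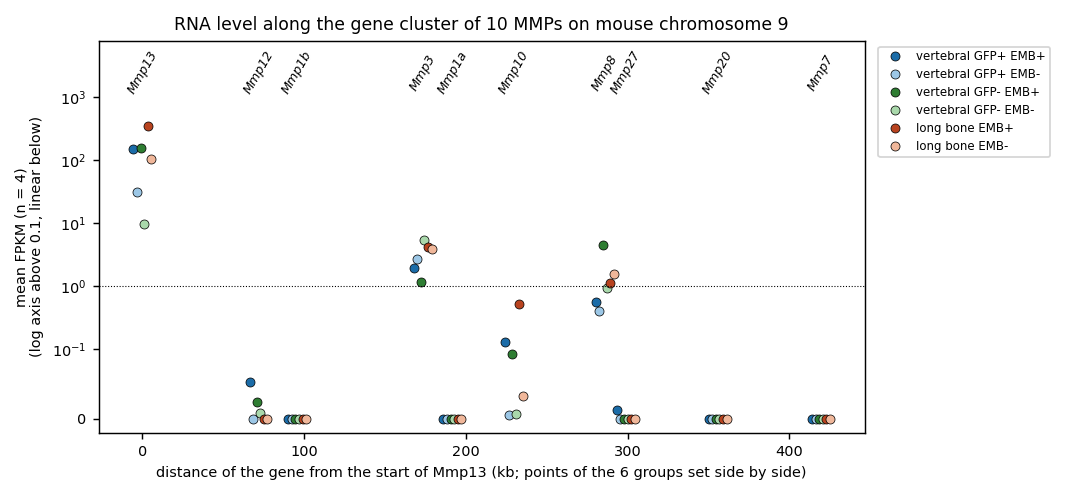
Mean FPKM of the 10 MMP genes of the chromosome 9 cluster in each of the 6 groups (n = 4), plotted by distance from the start of Mmp13 in kilobases; the vertical axis is logarithmic above 0.1 and linear below, and the dotted line is the 1 FPKM used in the filter. Mmp13 stands between 9.80 and 346 FPKM, Mmp3 and Mmp8 lie between 0.403 and 5.32, and Mmp1a, Mmp1b, Mmp7 and Mmp20 lie at 0.

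A few members held most of the family's RNA. Over all 24 libraries, Mmp2 (gelatinase A), Timp2, Mmp14 (a membrane-bound MMP), Mmp13, Timp1 and Timp3 were the 6 most abundant. Summed over the 23 MMPs, FPKM averaged 1230 ± 134 (SD, n = 4) in EMB+ and 644 ± 75.8 in EMB- cells of long bone. The vertebral GFP+ source had 689 ± 33.5 in EMB+ and 434 ± 23.4 in EMB- cells, and the GFP- source 710 ± 60.7 and 275 ± 7.24. In each of the 3 sources, every EMB+ library lay above every EMB- library. Mmp2, Mmp13 and Mmp14 together made up between 85.7% and 91.1% of this sum on average in every group. The share of Mmp13 alone was 22.3%, 22.2% and 27.7% in the vertebral GFP+, vertebral GFP- and long bone EMB+ groups, and 7.20%, 3.54% and 15.8% in the EMB- groups in the same order.

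The summed TIMPs varied less, from 337 ± 36.2 FPKM in vertebral GFP- EMB- to 556 ± 16.6 in long bone EMB+ cells. The ratio of summed TIMP to summed MMP RNA was 0.704 ± 0.0623 in EMB+ against 0.996 ± 0.0582 in EMB- cells of the vertebral GFP+ source. For vertebral GFP- it was 0.643 ± 0.0358 against 1.23 ± 0.110, and in long bone 0.454 ± 0.0353 against 0.771 ± 0.042. The ratio was lower in every EMB+ library than in any EMB- library of the same source, and it is given as a description with no test. It compares RNA levels, not active protein.

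**Figure D2:**
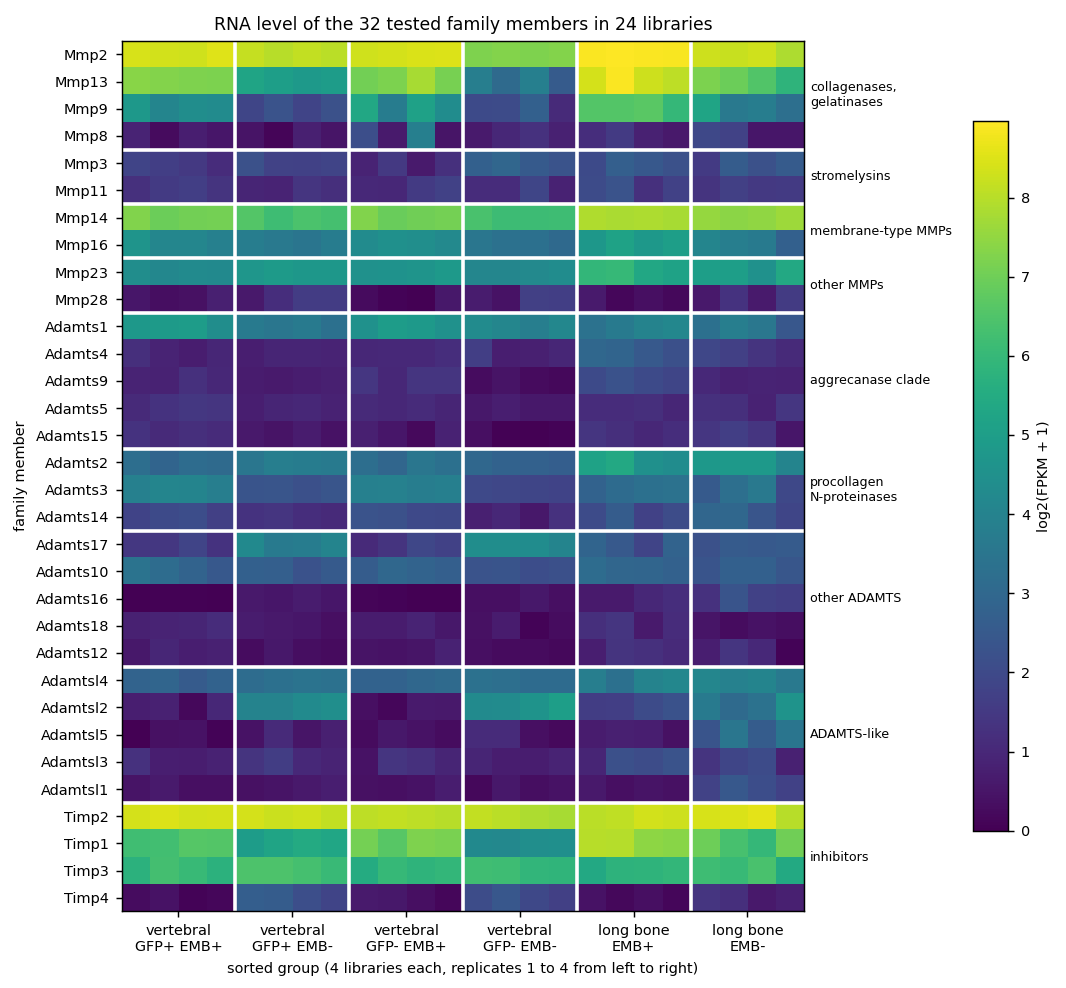
log2(FPKM + 1) of the 32 tested members (rows, by role) in the 24 libraries (columns, 4 per group), with white lines between roles and between groups. Mmp2, Timp2, Mmp14, Mmp13 and Timp1 form the brightest rows, and Adamtsl2, Adamts17 and Timp4 are brighter in the vertebral EMB- groups than in the EMB+ groups.

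Comparing EMB+ with EMB- cells asks what embigin separates within each source. A member was called where its limma p, adjusted over all 11767 tested genes, was under 0.05, and changes are differences of log2(FPKM + 1), which understate those of low genes. In vertebral GFP+ cells 12 of the 32 members were higher in EMB+ cells and 8 lower, against 42.1% and 7.85% of all tested genes. The vertebral GFP- source had 14 higher and 5 lower, against 41.7% and 10.6%. In long bone cells 10 were higher and 6 lower, against 17.5% and 16%. The members called higher in vertebral cells (37.5% and 43.8%) were thus near the background share, while 25.0% were called lower in GFP+ cells.

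Most genes leaned towards EMB+ in the vertebral comparisons: the median change over all tested genes was 0.32 and 0.30 there and 0.08 in long bone, and over the members 0.21, 0.37 and 0.27. With median-ratio scaling, which sets the median of all genes to 0.01, -0.03 and 0.01, the members split into 6 higher and 10 lower in vertebral GFP+ cells and 9 higher and 8 lower in vertebral GFP- cells. Quantile normalization gave 7 and 9, and 9 and 8. Either scaling ended 6, 5 and 2 of the members' EMB calls in vertebral GFP+, vertebral GFP- and long bone cells, and these are named with each gene below.

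The 3 EMB comparisons share no library. Called higher in all 3 were Mmp2, Mmp9, Mmp13, Mmp14, Mmp16 and Timp1, 18.8% of the members against 10.4% of all tested genes, and called lower in all 3 were Adamtsl2, Timp4 and Mmp28, 9.38% against 2.36%. These shares are those of the main fit. Under a scaling, Mmp2 and Mmp16 lost their call in vertebral GFP+ cells, and Mmp14 and Mmp28 theirs in long bone. Mmp23 was called in both directions, and Adamts12, Adamtsl3, Mmp8, Mmp11, Timp2 and Timp3 in none.

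**Figure D3:**
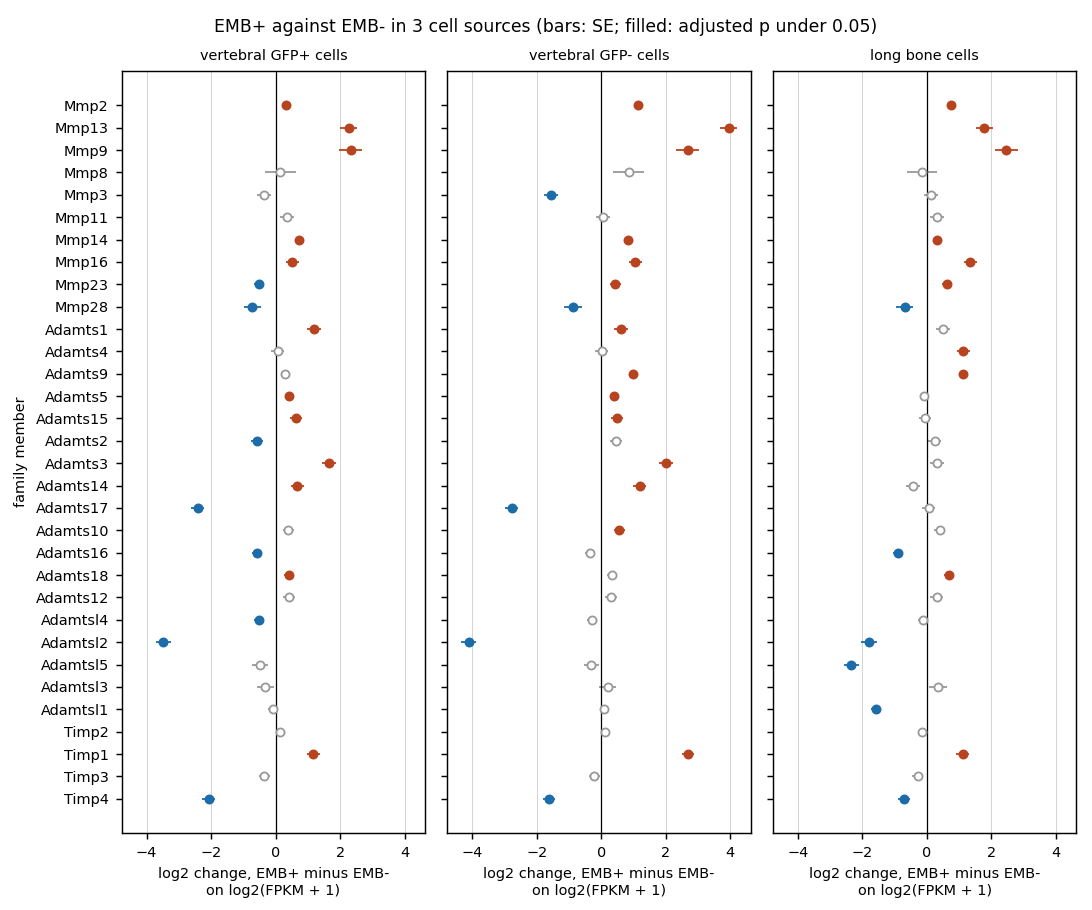
Change of each tested member between EMB+ and EMB- cells, as log2(FPKM + 1) with its SE, in vertebral GFP+, vertebral GFP- and long bone cells; filled points passed the adjusted p of 0.05 (red higher, blue lower). Mmp13 and Mmp9 lie far to the right in all 3 panels, and Adamtsl2 far to the left, while Adamts17 lies at -2.42 and -2.78 in vertebral cells and at 0.06 in long bone.

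Among collagenases and gelatinases, Mmp13 and Mmp9 rose most in every source. Mmp13 (ENSMUSG00000050578, chromosome 9, 7272514 to 7283333) encodes collagenase-3, which cuts the type II collagen of cartilage. In vertebral GFP+ cells it stood at 163.4, 156.5, 150.1 and 144.5 FPKM in the EMB+ libraries and 36.3, 31.9, 27.1 and 29.6 in the EMB- libraries. The vertebral GFP- EMB+ libraries held 132, 144, 222 and 138 FPKM and their EMB- counterparts 13.1, 7.53, 13.6 and 5.00. The long bone EMB+ libraries held 333, 479, 308 and 265 FPKM and the EMB- libraries 146, 123, 90.6 and 56.2. The EMB+ and EMB- libraries did not overlap in any source, and the highest long bone EMB- library lay within the range of the vertebral EMB+ libraries. The change was 2.27 ± 0.26 (SE, adjusted p = 1.3e-07) in vertebral GFP+, 3.95 ± 0.26 (5.5e-12) in vertebral GFP- and 1.78 ± 0.26 (6e-06) in long bone cells, 4.92-fold, 16.2-fold and 3.33-fold between the group means. Markers of hypertrophic cartilage moved with it: the 7 listed genes summed to 3580 to 4050 FPKM in vertebral GFP+ EMB+ against 1500 to 1700 in EMB- cells, 3800 to 4810 against 826 to 1210 in GFP- cells, and 5060 to 9130 against 3410 to 4980 in long bone. Spp1 was the largest part of the EMB+ sums, and in vertebral GFP+ cells Ibsp averaged 429 FPKM in EMB+ against 532 in EMB- cells. In each source 6 of the 7 were called higher in EMB+ cells and 0 lower. The part of these markers in the Mmp13 result was not tested.

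Mmp9 (chromosome 2, 164940780 to 164955850) encodes gelatinase B, which is needed for vessels to enter the growth plate and is also made by osteoclasts and neutrophils. The vertebral GFP+ EMB+ libraries held 26.7, 15.8, 19.9 and 18.9 FPKM and the EMB- libraries 2.69, 3.90, 2.62 and 3.66. Among vertebral GFP- cells the values were 40.5, 12.5, 33.9 and 19.6 FPKM in EMB+ against 3.08, 3.12, 5.66 and 1.11 in EMB- libraries. Long bone EMB+ libraries held 93.8, 93.2, 102 and 61.8 FPKM against 36.3, 11.2, 12.8 and 8.75. All EMB+ libraries lay above all EMB- libraries of their source, and long bone EMB- replicate 1 was well above the other 3. The changes were 2.33 ± 0.36 (adjusted p = 1.4e-05), 2.68 ± 0.36 (1.6e-06) and 2.47 ± 0.36 (7.9e-06) in the same order, close to each other relative to their SE.

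The 11 neutrophil markers summed to between 559 and 3890 FPKM in vertebral GFP- EMB+ against at most 681 in EMB- libraries, and there the library with the most Mmp13 and Mmp8, replicate 3, was also the highest for Mpo (298 FPKM) and S100a8 (1390 FPKM). The most Mmp9, 40.5 FPKM, was in replicate 1 of that group, which had its lowest Mpo (54.9 FPKM) and S100a8 at 934 FPKM. Among vertebral GFP+ cells the neutrophil marker sums overlapped, at 17.6 to 238 FPKM in EMB+ and 39.4 to 104 in EMB- libraries, while Mpo stood at 0.914 to 6.24 FPKM in the former and was listed at 0 in all 4 of the latter. In long bone the sums overlapped too, at 124 to 951 and 222 to 854, but precursor markers were higher in EMB+ cells, with Mpo at 35.0 against 4.02 FPKM on average and Elane at 21.3 against 3.44. Of the 11 markers, 1, 11 and 4 were called higher in EMB+ cells of vertebral GFP+, vertebral GFP- and long bone source, and none lower. The 8 osteoclast markers summed to 34.3 to 39.5 against 31.4 to 40.5 FPKM in vertebral GFP+, 50 to 53.4 against 27 to 33.8 in vertebral GFP- and 86 to 115 against 95.6 to 124 in long bone cells. Ctsk was the largest part of these sums and averaged 46.6 against 18.3 FPKM in vertebral GFP- cells. Acp5 averaged 3.35 against 9.51 FPKM there and 7.06 against 22.8 in long bone. Of 3 osteoclast markers tested, 1, 1 and 0 were called higher in EMB+ cells and 0, 1 and 1 lower, with sources in the same order. The part of these cells in the Mmp9 result was not tested. Mmp8 itself (3.50, 0.555, 13.5 and 0.423 FPKM in vertebral GFP- EMB+ libraries, and at most 2.86 in any library of another group) passed the test in no comparison. Without replicate 2 or replicate 4 of vertebral GFP- EMB+ cells, its change between EMB+ and EMB- vertebral GFP- cells, 0.85 ± 0.48 (adjusted p = 0.14), became a call (1.24, 0.0327, and 1.28, 0.0252). Without the 4 libraries with conflicting labels it was called lower in EMB- cells of vertebral GFP+ source than in those of long bone (-0.72, 0.0385).

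Mmp2 (chromosome 8, 92827291 to 92853420) encodes gelatinase A and was the most abundant member. The vertebral GFP- EMB+ libraries held 315, 330, 350 and 359 FPKM and the EMB- libraries 150, 157, 148 and 155. Long bone EMB+ libraries held 480, 497, 485 and 463 FPKM against 309, 297, 315 and 229. Among vertebral GFP+ cells the difference was smaller, 338, 327, 320 and 364 FPKM against 287, 257, 281 and 264. The groups did not overlap in any source. The changes were 1.15 ± 0.10 (adjusted p = 1.4e-09) in vertebral GFP-, 0.75 ± 0.10 (2.1e-06) in long bone and 0.31 ± 0.10 (0.015) in vertebral GFP+ cells. The last lies at the median of all genes in that comparison, and it became -0.08 with median-ratio scaling (0.665) and 0.09 with quantile normalization (0.73), so its direction is not settled.

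The membrane-type MMPs Mmp14 and Mmp16 were both higher in EMB+ cells of all 3 sources. Mmp14 (chromosome 14, 54431612 to 54441265) encodes MT1-MMP, which cuts collagen at the cell surface and, with TIMP2, activates MMP2. It averaged 136.8 ± 12.6 FPKM (SD, n = 4) in EMB+ against 82.7 ± 9.26 in EMB- vertebral GFP+ cells, 133.6 ± 13.8 against 73.9 ± 6.55 in vertebral GFP- cells and 229.5 ± 8.67 against 182.0 ± 13.3 in long bone. The changes were 0.72 ± 0.11 (adjusted p = 5.4e-06), 0.84 ± 0.11 (4.4e-07) and 0.33 ± 0.11 (0.016). The long bone call was lost with quantile normalization (0.0538), in a fit of the 2 long bone groups alone (0.148) and without long bone EMB- replicate 2 (0.0527). Mmp16 (chromosome 4, 17852893 to 18119145), another membrane-anchored MMP, rose by 1.35 ± 0.20 in long bone (25.5, 35.1, 26.7 and 31.5 FPKM against 15.9, 13.2, 11.7 and 5.65; adjusted p = 6.9e-06) and by 1.06 ± 0.20 in vertebral GFP- cells (9.8e-05). Its change of 0.51 ± 0.20 in vertebral GFP+ cells (0.035) was lost under both scalings (0.678 and 0.59), without the 4 libraries with conflicting labels (0.0514), without a filter (0.0625) and without any of 4 single libraries (highest 0.154). The other 4 membrane-type members, Mmp15, Mmp17, Mmp24 and Mmp25, stayed under the filter, the highest at 1.24 FPKM in a single library of Mmp25.

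**Figure D4:**
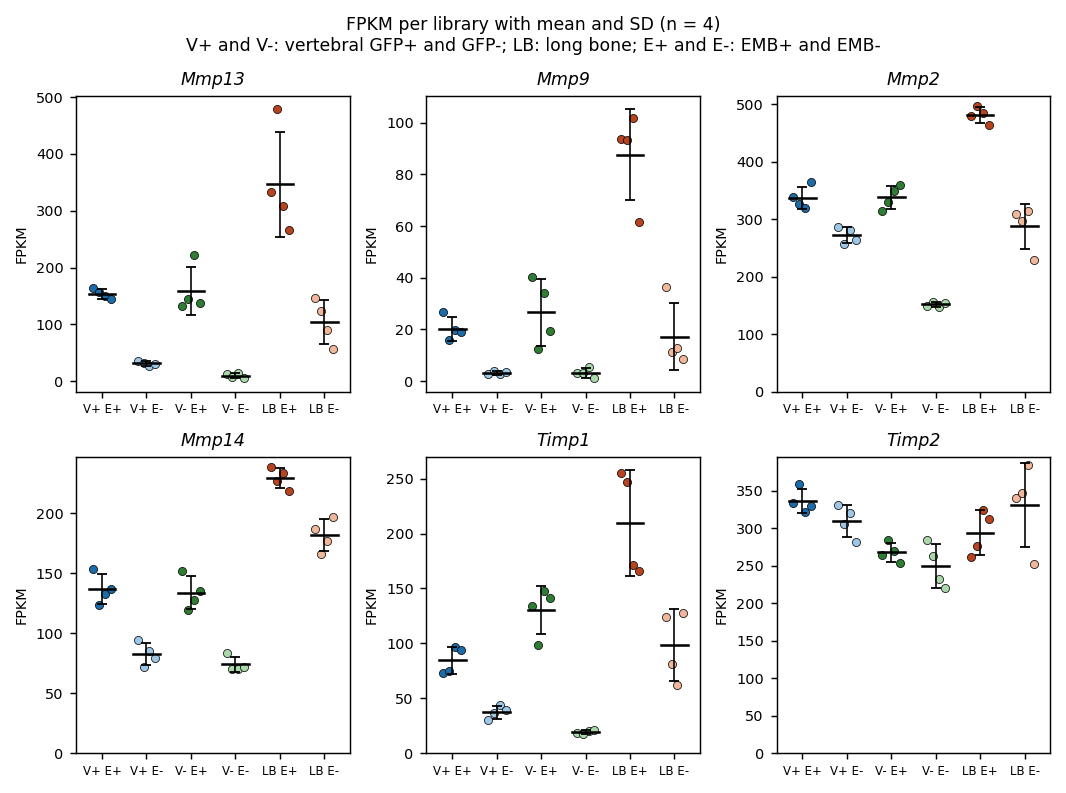
FPKM of Mmp13, Mmp9, Mmp2, Mmp14, Timp1 and Timp2 in each library (points), with group means (lines) and SD (bars, n = 4). For Mmp13, Mmp9, Mmp2, Mmp14 and Timp1 the EMB+ points lie above the EMB- points of the same source and long bone EMB+ is highest, while the 6 groups of Timp2 average between 249.8 and 336.4 FPKM.

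Of the stromelysins, Mmp3 and Mmp11 were tested. Mmp3 (chromosome 9, 7445822 to 7455972), a broad protease that also activates other MMPs, was lower in EMB+ cells of the vertebral GFP- source, with 0.876, 1.82, 0.568 and 1.39 FPKM against 5.71, 6.82, 4.79 and 3.95. No library of either group overlapped, and the change was -1.56 ± 0.22 (adjusted p = 3.3e-06). In vertebral GFP+ cells it was -0.36 ± 0.22 (0.19), which median-ratio scaling turned into a call of -0.63 (0.0318), and in long bone 0.13 ± 0.22 (0.69). Mmp11, stromelysin-3, had group means of 1.16 to 2.68 FPKM and was called in no EMB comparison. Mmp10, stromelysin-2, lay under the filter and was not tested; its EMB+ libraries lay above the EMB- libraries of the same source in all 3 sources, at 0.0277 to 0.245 FPKM against at most 0.0233, 0.0477 to 0.141 against at most 0.0234, and 0.209 to 0.767 against at most 0.0436.

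Mmp23 (chromosome 4, 155650655 to 155653384), a small MMP anchored in the membrane, was called lower in EMB+ cells in vertebral GFP+ (18.2 ± 1.35 against 26.4 ± 1.33 FPKM, -0.51 ± 0.16, adjusted p = 0.011) and higher in long bone cells (49.58 ± 14.05 against 31.7 ± 8.13, 0.62 ± 0.16, 0.0041). The long bone call was lost in the fit of its 2 groups alone (0.105). Its call in vertebral GFP- cells (23.97 ± 2.16 against 17.4 ± 1.53 FPKM, 0.44 ± 0.16, 0.025) was lost under both scalings (0.848 and 0.589) and without any of 3 libraries, vertebral GFP- EMB- replicate 1 or 2 or EMB+ replicate 4 (highest 0.0735). Mmp28, epilysin, was low throughout, at most 0.743 FPKM in any EMB+ library and up to 2.23 in EMB- libraries. Its calls were -0.72 ± 0.27 (0.029), -0.88 ± 0.27 (0.0077) and -0.69 ± 0.27 (0.047), of which only that in vertebral GFP- cells held without each library in turn, and the long bone call was lost under both scalings (0.063 and 0.125).

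In the aggrecanase clade, 5 of 7 genes were tested, and 3, 4 and 2 of them were called higher in EMB+ cells of vertebral GFP+, vertebral GFP- and long bone source, with none lower. Of these calls, 2 of the 3 in GFP+ cells and 3 of the 4 in GFP- cells were lost under a scaling, and the share of all genes called higher was 42.1%, 41.7% and 17.5%. Adamts1 (chromosome 16, 85793827 to 85803113), which cuts versican and aggrecan, was the most abundant. It stood at 26.5, 28.5, 29.8 and 20.1 FPKM in vertebral GFP+ EMB+ libraries against 12.03, 10.46, 11.63 and 8.936 in EMB- libraries, with no overlap and a change of 1.20 ± 0.22 (adjusted p = 7e-05). In vertebral GFP- cells, 25.6 ± 3.97 against 16.4 ± 2.33 FPKM, the change of 0.60 ± 0.22 (0.022) did not survive either scaling (0.509 and 0.279), nor the loss of EMB- replicate 3 or of EMB+ replicate 2 or 3 of that source (highest 0.0721). In long bone it was 0.51 ± 0.22 (0.067), and it became a call with quantile normalization (0.0304) and without long bone EMB- replicate 2 (0.0142) or 3 (0.0464) or EMB+ replicate 1 (0.0291).

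The aggrecanases proper were low. Adamts5 (chromosome 16, 85858170 to 85901125), the neighbour of Adamts1 and the main aggrecanase of mouse cartilage, averaged between 0.546 and 1.49 FPKM. Its calls of 0.42 ± 0.13 (adjusted p = 0.0081) and 0.40 ± 0.13 (0.011) in vertebral GFP+ and GFP- cells were both lost under each scaling (lowest 0.0863). Adamts4 (chromosome 1, 171250421 to 171260637), the other aggrecanase, was called only in long bone, with 6.96, 6.35, 4.64 and 3.55 FPKM in EMB+ against 2.79, 2.27, 1.52 and 1.11 in EMB- libraries. These do not overlap (change 1.13 ± 0.20, 8.5e-05), while its vertebral changes were 0.07 ± 0.20 (0.80) and 0.02 ± 0.20 (0.94). The long bone change exceeded both by test (difference -1.06 ± 0.28, 0.0054, and -1.11 ± 0.28, 0.0046). Adamts9, which cuts versican, was higher in EMB+ cells of vertebral GFP- (1.48 ± 0.311 against 0.246 ± 0.102 FPKM, 0.99 ± 0.13, 5.7e-07) and long bone source (3.12 ± 0.454 against 0.878 ± 0.127 FPKM, 1.13 ± 0.13, 1e-07). Adamts15 reached at most 2.198 FPKM, and its calls of 0.63 and 0.48 in vertebral GFP+ and GFP- cells (0.0062 and 0.030) were lost with median-ratio scaling (0.0618 and 0.096), and the latter without any of 5 libraries (highest 0.0998).

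All 3 procollagen N-proteinases were tested, and they differed from each other. Adamts3 (chromosome 5, 89677087 to 89883334), which trims procollagen II and also acts on the precursor of VEGF-C, stood at 13.9, 15.8, 15.4 and 13.4 FPKM in vertebral GFP+ EMB+ libraries against 4.05, 4.19, 3.59 and 4.12. The GFP- source had 13.89, 14.43, 12.99 and 13.68 against 2.90, 2.74, 2.69 and 2.45 FPKM. The EMB+ libraries lay above the EMB- libraries in both vertebral sources, and the changes were 1.65 ± 0.22 (adjusted p = 1.2e-06) and 2.00 ± 0.22 (4.4e-08). In long bone, 6.05, 7.67, 9.02 and 9.40 FPKM in EMB+ overlapped with 4.80, 8.69, 11.3 and 2.81 in EMB- libraries, and the change was 0.32 ± 0.22 (0.27). Without long bone EMB- replicate 3 this became a call (0.0231). Adamts14, a close relative, was higher in EMB+ vertebral cells (0.67 ± 0.21, 0.010, lost under both scalings at 0.182 and 0.11, and 1.19 ± 0.21, 4.9e-05), and stood at -0.43 ± 0.21 (0.12) in long bone, which without long bone EMB- replicate 4 (0.00858) or EMB+ replicate 2 (0.0389) became a call. Adamts2 (chromosome 11, 50602084 to 50807573), the main N-proteinase of procollagen I, was lower in EMB+ cells of the vertebral GFP+ source (7.61 ± 0.862 against 11.9 ± 1.17 FPKM, -0.58 ± 0.19, 0.015). In vertebral GFP- cells it stood at 0.45 ± 0.19 (0.053), and a block for replicate number made it a call (0.45, 0.0108).

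Among the other ADAMTS genes, Adamts17 separated the sources most. Adamts17 (chromosome 7, 66839735 to 67153171) is linked in humans to Weill-Marchesani-like syndrome, a short-stature disorder of fibrillin microfibrils. Vertebral GFP+ EMB+ libraries held 1.73, 1.74, 2.54 and 1.46 FPKM and EMB- libraries 18.0, 11.6, 12.5 and 15.4. Vertebral GFP- libraries held 1.10, 1.57, 2.73 and 2.29 against 20.2, 19.8, 19.4 and 15.3 FPKM. Long bone libraries held 6.43, 4.65, 2.59 and 6.27 FPKM in EMB+ and 3.63, 4.98, 4.68 and 4.93 in EMB- cells. Thus the vertebral groups were far apart and the long bone groups overlapped. The changes were -2.42 ± 0.20 (adjusted p = 8.1e-10), -2.78 ± 0.20 (4.3e-11) and 0.06 ± 0.20 (0.86), and the vertebral changes differed from that in long bone by -2.48 ± 0.29 (2.4e-07) and -2.84 ± 0.29 (7.9e-08).

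The related Adamts10 averaged between 3.72 and 7.06 FPKM. Its single EMB call, in vertebral GFP- cells (0.56 ± 0.17, adjusted p = 0.0066), was lost under both scalings (0.337 and 0.0966). Adamts18 was called higher in long bone EMB+ cells (1.17 ± 0.443 against 0.320 ± 0.0853 FPKM, 0.69 ± 0.15, 0.00082). Its call in vertebral GFP+ cells (0.40, 0.030) was lost under both scalings (0.248 and 0.178). Adamts16 was called lower in EMB+ cells of long bone (0.833 ± 0.342 against 2.49 ± 1.08 FPKM, -0.90 ± 0.16, 8.6e-05) and of vertebral GFP+ source, where it was listed at 0 in 2 EMB+ libraries and reached 0.0253 FPKM in the others against 0.452 to 0.603 in EMB- libraries (0.0045, lost with a pseudocount of 5 at 0.0733). Adamts12, at most 1.60 FPKM, was not called in any EMB comparison.

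Of the ADAMTS-like genes, none of the 5 was called higher in EMB+ cells of any source. In vertebral GFP+, vertebral GFP- and long bone source 2, 1 and 3 were called lower. The 3 in long bone include Adamtsl1, which passed the filter only through the long bone EMB- libraries. Of all tested genes, 42.1%, 41.7% and 17.5% were called higher and 7.85%, 10.6% and 16% lower. Adamtsl2 (chromosome 2, 27079379 to 27108981), which binds fibrillin-1 and the latent TGF-beta complex and is mutated in human geleophysic dysplasia, changed most of all members in both vertebral sources. In vertebral GFP+ cells it stood at 0.697, 0.782, 0.152 and 0.975 FPKM in EMB+ and at 14.9, 14.9, 18.5 and 20.7 in EMB- libraries. In vertebral GFP- cells the values were 0.301, 0.121, 0.553 and 0.528 against 18.5, 19.1, 23.4 and 31.5 FPKM. Long bone EMB+ libraries held 2.09, 2.16, 3.13 and 3.75 FPKM against 11.86, 7.598, 9.447 and 23.37. No EMB+ library reached any EMB- library. The changes were -3.48 ± 0.24 (adjusted p = 2.7e-11), -4.11 ± 0.24 (7.4e-13) and -1.80 ± 0.24 (2.1e-06), or 26.5-fold, 61.6-fold and 4.69-fold lower between means.

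Markers of other connective tissue cells moved with the members that were low in vertebral EMB+ cells, Adamtsl2, Adamts17 and Timp4. All 6 tendon and ligament markers were called lower in EMB+ cells of both vertebral sources and 3 in long bone (median changes -1.86, -1.06 and -0.76). They summed to 1910 to 2060 FPKM in EMB+ against 3690 to 4150 in EMB- libraries of vertebral GFP+ source, 1670 to 1940 against 3280 to 3800 for GFP-, and 1560 to 2350 against 1860 to 2700 in long bone. Fmod was the largest part of these sums. In long bone it averaged 1800 against 1860 FPKM, while Tnmd averaged 39.9 against 180, Thbs4 53 against 122 and Kera 3.65 against 20.6. Of 8 fibroblast and periosteum markers 6, 6 and 5 were called lower and 1, 2 and 1 higher (medians -2.11, -1.72 and -1.11), with sums of 654 to 694 against 1400 to 1790 FPKM, 693 to 892 against 1190 to 1560, and 1190 to 1440 against 1430 to 2650. Col3a1 was the largest part of the EMB- sums. Lum went the other way, averaging 346 FPKM in EMB+ against 119 in EMB- cells, 438 against 66.7, and 438 against 149. The part of such cells in the 3 results was not tested.

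Adamtsl5 and Adamtsl1 were highest in long bone EMB- cells. Adamtsl5 (chromosome 10, 80339110 to 80348412) stood at 4.06, 10.4, 5.05 and 10.1 FPKM there, at 0.597, 0.706, 0.667 and 0.309 in long bone EMB+ libraries and at most 1.15 in any vertebral library. Adamtsl1 (chromosome 4, 85514172 to 86428385) stood at 2.39, 4.55, 3.39 and 2.36 FPKM in long bone EMB- libraries and at most 0.679 in any other library. It thus passed the filter of 1 FPKM in 4 libraries only through the group where it is high. Its calls in comparisons and differences that use long bone EMB- cells therefore describe these values and are no separate support. The changes of Adamtsl5 and Adamtsl1 between EMB+ and EMB- long bone cells were -2.34 ± 0.24 (adjusted p = 1.7e-08) and -1.57 ± 0.15 (6.8e-09). Neither was called in vertebral cells (largest change -0.48 ± 0.24, Adamtsl5 in GFP+ cells, 0.090, called with a pseudocount of 0.1 at 0.0128 and in the fit of those 2 groups at 0.0188). In long bone EMB- cells, erythroid genes were also high: they summed to between 20200 and 42600 FPKM against 244 to 529 in long bone EMB+ libraries. Tnni2, a skeletal muscle troponin, averaged 509 against 53.7 FPKM, while the other 4 muscle markers averaged at most 4.24 in either group. Their part in these 2 results was not tested. Adamtsl4, linked in humans to lens dislocation, was lower in EMB+ vertebral GFP+ cells (5.96 ± 0.675 against 8.94 ± 0.736 FPKM, -0.52 ± 0.15, 0.0052), and in vertebral GFP- cells its -0.29 ± 0.15 (0.10) became a call under both scalings (0.00107 and 0.00258). Adamtsl3 was not called in any EMB comparison.

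**Figure D5:**
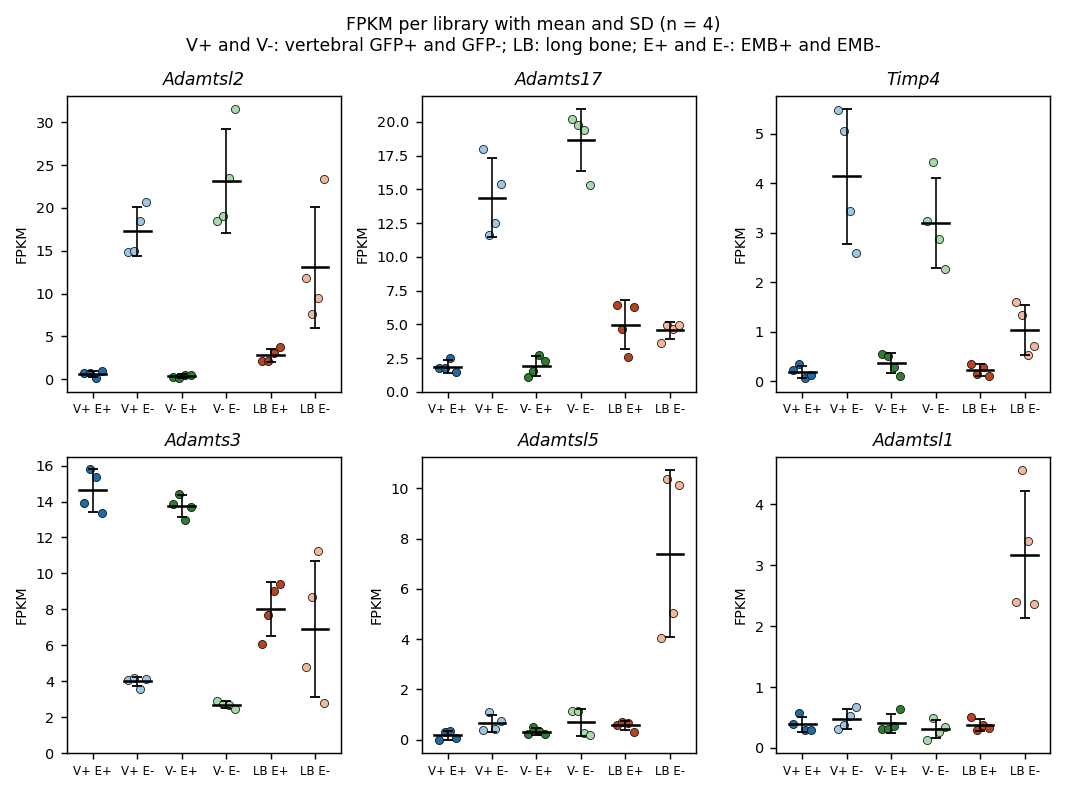
FPKM of Adamtsl2, Adamts17, Timp4, Adamts3, Adamtsl5 and Adamtsl1 in each library (points), with group means (lines) and SD (bars, n = 4). Adamtsl2 and Timp4 are higher in the EMB- than in the EMB+ group of each source, with Timp4 at 1.04 FPKM on average in long bone EMB- cells. Adamts17 is high in the vertebral EMB- groups alone, Adamts3 is high in the vertebral EMB+ groups, and Adamtsl5 and Adamtsl1 are high in long bone EMB- cells.

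The 4 inhibitors did not move together. Timp1 (chromosome X, 20870166 to 20874735) stood at 73.4, 74.5, 96.9 and 93.7 FPKM in vertebral GFP+ EMB+ libraries against 29.8, 36.5, 44.0 and 38.8. The GFP- source had 134, 98.6, 148 and 141 against 18.3, 17.2, 20.3 and 20.8 FPKM. Long bone EMB+ libraries held 255.1, 247.3, 170.9 and 165.4 FPKM against 124, 80.8, 61.7 and 128. EMB+ libraries lay above EMB- libraries in every source, with changes of 1.16 ± 0.20 (adjusted p = 3.2e-05), 2.69 ± 0.20 (3.6e-11) and 1.12 ± 0.20 (7e-05).

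Timp4 (chromosome 6, 115241892 to 115252205), an inhibitor best known from heart, went the other way. It stood at 0.235, 0.342, 0.0602 and 0.118 FPKM in vertebral GFP+ EMB+ libraries against 5.47, 5.06, 3.43 and 2.59, and at 0.552, 0.503, 0.287 and 0.110 against 3.24, 4.42, 2.86 and 2.27 in vertebral GFP- cells. Long bone libraries held 0.354, 0.156, 0.291 and 0.115 FPKM against 1.60, 1.33, 0.524 and 0.711. The groups did not overlap in any source, and the changes were -2.08 ± 0.19 (adjusted p = 4.8e-09), -1.61 ± 0.19 (2.2e-07) and -0.70 ± 0.19 (0.0064).

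Timp2 (chromosome 11, 118301069 to 118355740), which both inhibits MMP2 and takes part in its activation by MMP14, was the most abundant inhibitor and was not called in any EMB comparison: its changes were 0.12 ± 0.12 (adjusted p = 0.42), 0.11 ± 0.12 (0.47) and -0.16 ± 0.12 (0.33). Without long bone EMB- replicate 4 the last was -0.28 (0.0237). Its share of summed TIMP RNA was nonetheless 59.0% ± 3.48 in vertebral GFP- EMB+ and 74.0% ± 0.785 in EMB- cells, as Timp1 went from 5.76% in EMB- to 28.6% in EMB+ cells. Timp3 (chromosome 10, 86300372 to 86349506), which binds to the matrix and also inhibits ADAMTS4 and ADAMTS5, averaged 62.1 ± 11.5 against 79.7 ± 9.67 FPKM, 55.9 ± 8.15 against 65.0 ± 8.05 and 52.51 ± 7.999 against 65.2 ± 17.0. Its changes of -0.36 ± 0.17 (0.078), -0.22 ± 0.17 (0.29) and -0.28 ± 0.17 (0.22) were not called, but with median-ratio scaling those in vertebral cells were -0.75 (0.00301) and -0.62 (0.0105), and with quantile normalization -0.72 (0.00636) and -0.61 (0.0157). Without long bone EMB- replicate 4 the long bone change was -0.47 (0.0124). The vertebral GFP+ change was called without that library (0.0242) or without vertebral GFP+ EMB+ replicate 2 (0.0349).

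The EMB changes themselves were compared between sources, in differences that each use libraries of 2 sources. Between vertebral GFP+ and GFP- cells 7 of the 32 members differed, 1 higher and 6 lower, against 3.2% and 1.67% of all tested genes. The GFP+ change was smaller by 1.68 ± 0.37 for Mmp13 (adjusted p = 0.0047), by 1.53 ± 0.28 for Timp1 (0.00066) and by 0.84 ± 0.14 for Mmp2 (0.00041, lost with quantile normalization at 0.158). For Mmp3 the difference was 1.20 ± 0.32 (0.023), lost without any of 7 libraries (highest 0.0659). Adamts2, Adamts9 and Mmp23 were the other 3, and that of Adamts2 was lost without any of 4 libraries (highest 0.0622). For Mmp9 (-0.36 ± 0.51, 0.82), Adamtsl2 (0.63 ± 0.34, 0.41) and Adamts17 (0.36 ± 0.29, 0.63) no difference between GFP+ and GFP- cells passed the test, and the SE leaves room for sizeable ones. All 9 tested erythroid genes were called in this same difference (median 4.17). They summed to 7300 to 12400 FPKM in GFP- EMB- libraries, 122 to 520 in GFP- EMB+ and 266 to 979 in GFP+ EMB- libraries. Their part in the member differences was not tested.

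Against long bone, 15 members differed in vertebral GFP+ cells (6 higher and 9 lower, against 25% and 5.57% of all tested genes; 4 and 10 with median-ratio scaling) and 14 in vertebral GFP- cells (9 higher and 5 lower, against 24.7% and 5.07%). Adamtsl2 fell further in vertebral than in long bone cells, by 1.68 ± 0.34 in GFP+ (adjusted p = 0.00048) and 2.31 ± 0.34 in GFP- cells (2e-05). The changes of Adamtsl1 (differences 1.48 and 1.67), Adamtsl5 (1.85 and 2.03), Adamts3 (1.33 and 1.68) and Adamts14 (1.11 and 1.63) also differed from long bone in both vertebral sources (largest adjusted p, 0.0057). The Adamtsl5 difference in GFP+ cells was lost with a pseudocount of 0.1 (0.0672). Both scalings ended the differences of Adamts15 (0.69) and Adamts5 (0.50) in GFP+ cells and of Adamts5 (0.48), Mmp14 (0.51) and Mmp2 (0.39) in GFP- cells. For Mmp13 the vertebral GFP- change was larger than that of long bone by 2.17 ± 0.37 (9.1e-05), and for Timp1 by 1.58 ± 0.28 (0.00014), whereas the vertebral GFP+ changes differed by 0.49 ± 0.37 (0.35) and 0.05 ± 0.28 (0.92).

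Within vertebral EMB+ cells, no member differed by GFP past the threshold. By limma none of the 32 members was called, against 0.391% of all tested genes higher and 1.71% lower in GFP+ cells, and 7 had an unadjusted p under 0.05. Mmp13 averaged 153.6 ± 8.13 FPKM in GFP+ and 158.9 ± 42.1 in GFP- cells (-0.02 ± 0.26, adjusted p = 1), Mmp2 337.3 ± 19.3 and 338.5 ± 20.0, and Adamts3 14.6 ± 1.18 and 13.8 ± 0.597. Timp1 was 84.6 ± 12.4 against 130.3 ± 21.9 FPKM, groups that did not overlap (-0.61 ± 0.20, 0.14). With the replicate number as a block it was called (-0.61, 0.0202), the single call of that fit, and the fit of the 2 groups alone called 3 members, Timp1 among them (0.0262).

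Within vertebral EMB- cells, 6 members differed by GFP, 5 higher and 1 lower in GFP+ cells, against 2.25% and 6.22% of all tested genes (7 and 0 with quantile normalization). Mmp13 was 31.2 ± 3.90 FPKM in GFP+ and 9.80 ± 4.21 in GFP- cells (1.66 ± 0.26, adjusted p = 4.6e-05). Timp1 (37.3 ± 5.87 against 19.2 ± 1.69 FPKM, 0.92 ± 0.20, 0.0021), Adamts2 (11.9 ± 1.17 against 6.05 ± 0.649, 0.87 ± 0.19, 0.0031) and Mmp2 (272.1 ± 13.9 against 152.2 ± 4.26, 0.83 ± 0.10, 1.4e-06) were also higher, with no overlap. Mmp23 was higher by 0.58 ± 0.16 (0.023), lost without any of 4 libraries (highest 0.072). Mmp3 was lower by -0.76 ± 0.22 (0.034), lost with quantile normalization (0.0571), without a filter (0.062), with a pseudocount of 0.1 (0.0643) and without any of 6 libraries (highest 0.137). Erythroid genes stood apart between these groups, at 266 to 979 FPKM summed in GFP+ and 7300 to 12400 in GFP- libraries. With hemoglobin genes left out and libraries set to one sum, an alternative chosen after seeing the data, 5 members were still called higher and 1 lower.

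In EMB+ cells, the members called between sites were mostly lower in vertebral than in long bone cells. Of the 32 tested members, 14 had their highest group mean in long bone EMB+ cells, against 22.4% of all tested genes, and 18 had their lowest in vertebral GFP- EMB- cells, against 31.7%. In EMB+ cells, vertebral GFP+ against long bone, 2 members were higher and 16 lower in vertebrae, against 8.66% and 12.9% of all tested genes, and these counts were the same under both scalings. The comparison free of a difference in GFP sort, vertebral GFP- against long bone EMB+, had 2 higher and 18 lower, against 8.49% and 10.6%. The 2 vertebral comparisons share the long bone libraries, so their values stand side by side and are not independent.

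Mmp9, Adamts2 and Adamts4 had the largest differences in both of these EMB+ comparisons. Adamts2 stood at 34.6, 41.7, 21.5 and 19.4 FPKM in long bone EMB+ libraries against 7.61 ± 0.862 in vertebral GFP+ and 8.69 ± 1.54 in GFP- EMB+ cells, with no overlap (-1.75 ± 0.19, adjusted p = 1.3e-07, and -1.59 ± 0.19, 8.6e-07). For Mmp9 the differences were -2.05 ± 0.36 (0.00012) and -1.79 ± 0.36 (0.00068), and for Adamts4 -1.69 ± 0.20 (4.2e-07) and -1.58 ± 0.20 (1.6e-06). Mmp23 was lower in vertebral cells by -1.36 ± 0.16 (4.8e-07) and -0.98 ± 0.16 (6.3e-05), Mmp14 by -0.75 ± 0.11 (5.9e-06) and -0.78 ± 0.11 (4.2e-06), and Mmp13 by -1.13 ± 0.26 (0.0018) and -1.12 ± 0.26 (0.0024). Timp1 was lower by -1.28 ± 0.20 (1.6e-05) and -0.67 ± 0.20 (0.015), the latter lost without vertebral GFP- EMB+ replicate 2 or long bone EMB+ replicate 1 or 2 (highest 0.0748). Adamtsl2, low in all EMB+ cells, was lower still in vertebrae (-1.20 ± 0.24, 0.00055, lost with a pseudocount of 5 at 0.056, and -1.45 ± 0.24, 7.5e-05). Adamtsl3 was lower by -0.96 ± 0.27 (0.011) and -0.87 ± 0.27 (0.025, lost without any of 5 libraries, highest 0.115). In vertebral GFP- cells, Adamts12 (-0.54 ± 0.19, 0.048) and Mmp16 (-0.56, 0.0488) were called lower, but both were lost with median-ratio scaling (0.062 and 0.0529) and without any of 19 and 17 libraries.

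The exceptions were Adamts1 and Adamts3, the only members higher in vertebral EMB+ cells. Adamts1 averaged 26.2 ± 4.33 and 25.6 ± 3.97 FPKM in vertebral GFP+ and GFP- against 13.1 ± 3.31 in long bone EMB+ cells (0.96 ± 0.22, adjusted p = 0.0015, and 0.93 ± 0.22, 0.0024). Adamts3 was higher by 0.80 ± 0.22 (0.0079) and 0.72 ± 0.22 (0.019, lost without long bone EMB+ replicate 1 at 0.0764). Cell markers also differed by site: in EMB+ libraries the 8 osteoblast genes summed to 11400 to 25300 FPKM in long bone against 3200 to 5160 in vertebrae, and the 9 chondrocyte genes to 28300 to 41100 against 50600 to 53400. In vertebral GFP+ and GFP- cells, 5 and 5 osteoblast genes were called lower and 1 and 0 higher. Col1a1 was the largest part of that sum. Runx2 averaged 41.1 FPKM in long bone against 36.5 and 38.7, and Alpl 320 against 467 and 406. Of the chondrocyte genes 8 and 8 were called higher, and 1 and 1 lower, which was Matn1 (541 FPKM in long bone against 20.5 and 40.1). The part of these markers in the site differences was not tested.

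In EMB- cells, vertebral GFP+ against long bone gave 2 members higher and 14 lower, against 7.4% and 40.4% of all tested genes, so the share called lower, 43.8%, was near the background. The median over all tested genes was -0.27 here, and the split became 8 higher and 9 lower with quantile normalization and 4 and 10 with median-ratio scaling. Vertebral GFP- against long bone gave 4 higher and 19 lower, against 8.05% and 40.2%. Erythroid genes summed to 20200 to 42600 FPKM in long bone EMB- libraries. In vertebral GFP+ and GFP- EMB- libraries they summed to 266 to 979 and 7300 to 12400 FPKM. Their part in these site differences was not tested. Adamtsl5 (-2.27 ± 0.24, adjusted p = 1.5e-08, and -2.28 ± 0.24, 2.7e-08), Adamtsl1 (-1.48 ± 0.15, 1e-08, and -1.65 ± 0.15, 3e-09) and Mmp13 (-1.62 ± 0.26, 1.2e-05, and -3.29 ± 0.26, 2.5e-10) were lower in both vertebral sources. Timp1 (-1.33 ± 0.20, 3.8e-06, and -2.25 ± 0.20, 1.4e-09), Mmp9 (-1.91 ± 0.36 and -2.01 ± 0.36) and Mmp14 (-1.13 ± 0.11 and -1.29 ± 0.11) were lower as well. Higher in both were Adamts17 (1.46 ± 0.20, 1.8e-06, and 1.82 ± 0.20, 9.8e-08) and Timp4 (1.33 ± 0.19, 3.6e-06, and 1.05 ± 0.19, 9e-05). Timp2 was lower in vertebral GFP- cells (-0.40 ± 0.12, 0.0088), a call lost under both scalings (0.541 and 0.813). Adamts3 in GFP+ EMB- cells (-0.52 ± 0.22, 0.050) was lost under both scalings (0.362 and 0.551), and Adamts5 (-0.31 ± 0.13, 0.047) turned to 0.04 with quantile normalization (0.841). Adamts15, Adamts4 and Adamtsl4 lost their calls there too with quantile normalization (0.0866, 0.241 and 0.210). In GFP- EMB- cells the calls of Adamts12 (-0.54, 0.022) and Adamtsl3 (-0.72, 0.033) were lost with quantile normalization (0.156 and 0.128) and without any of 3 and 4 libraries.

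The 19 untested members were low throughout. Besides the cluster genes, Adamts7 and Adamts8 each reached 1 FPKM in 3 libraries and Mmp15 in 2, and Mmp25 and Adamts20 in 1. Adamts6, Adamts13, Adamts19, Mmp17, Mmp19, Mmp21 and Mmp24 did so in none, the highest being 0.955 FPKM for Mmp17. Adamts19 averaged 0.639 FPKM in long bone EMB- cells and at most 0.0956 in every other group, and Mmp21 was listed at 0 in 19 libraries. The library kit does not mark strand, so reads of members that share exonic bases with a gene on the other strand cannot be told apart from that gene's. Among them, Timp3 shares 1733 of 8144 exonic bases with Syn3, Adamts9 1381 of 15048 with A730049H05Rik, Mmp28 466 of 3874 with 1700020L24Rik, Mmp11 155 of 2778 with Chchd10 and Timp4 90 of 5894 with Syn2.

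Other genes of the pathway were counted in the EMB comparisons, where 42.1%, 41.7% and 17.5% of all tested genes were higher and 7.85%, 10.6% and 16% lower. Of 16 listed factors that can switch on MMP genes, EMB+ cells had 7 higher and 1 lower in the vertebral GFP+ source, 6 and 2 in the GFP- source, and 6 and 0 in long bone. Runx2, which binds the RUNX motif, averaged 36.5 against 8.59 FPKM, 38.7 against 3.44 and 41.1 against 14.3 (changes 1.99, 3.17 and 1.45, largest adjusted p = 2.1e-07), and Sp7, an osteoblast and hypertrophic cartilage factor, 63.0 against 14.7, 64.1 against 8.05 and 62.3 against 19.9. Of 7 tested activators 1, 2 and 1 were higher and none lower. Furin, which removes the propeptide of MMP14 and of ADAMTS proteases, was the activator called in all 3 sources (0.84 ± 0.20, 0.0015; 0.69 ± 0.20, 0.0062; 0.71 ± 0.20, 0.0083). Of 8 other inhibitors 5, 4 and 3 were higher and 1, 1 and 2 lower, with Serpine2 higher by 1.31 ± 0.16, 2.08 ± 0.16 and 1.83 ± 0.16.

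Of 17 substrates 8, 9 and 5 were higher and 9, 6 and 2 lower in EMB+ cells. Versican (Vcan), cut by several ADAMTS proteases, averaged 0.661 FPKM in vertebral GFP+ EMB+ and 11.8 in EMB- cells (-2.94 ± 0.16, adjusted p = 2.2e-13), and 0.549 against 15.6 in vertebral GFP- cells (-3.44 ± 0.16, 6.7e-15). Matn3, a cartilage matrix protein, was higher by 2.59, 3.60 and 1.64. Col3a1 was lower in vertebral GFP+ (-2.21 ± 0.18, 4.4e-10) and long bone EMB+ cells (-1.13 ± 0.18, 2e-05). In the vertebral GFP- source Col3a1 was lower too, averaging 260 FPKM in EMB+ against 827 in EMB- cells, with no overlap of libraries. Of 15 tested related proteases, such as ADAMs and cathepsins, 0, 5 and 3 were higher and 1, 2 and 2 lower.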

How the data were processed

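RNA of sorted cells was amplified with SMART-Seq v4 and made into Nextera XT libraries, per the labels' protocols, so strand is not marked. Per the submitters' processing notes, the tools and build were Cufflinks 2.1.1, STAR 2.5.2, bcl2fastq 2.19 and GRCm38. The authors deposited FPKM per gene for 24 libraries, and read depth cannot be had from it. FPKM is a share of each library, so a few very abundant genes shift all others; summed FPKM ran from 382364 to 568495.

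Groups came from the labels. Of 22053 rows, 46 with a repeated identifier, 56 with a repeated symbol and 3 with failed estimates were dropped. One limma model (limma 3.58.1, R 4.3.3; trend and robust) of 6 groups was fitted to log2(FPKM + 1) of the 11767 genes with 1 FPKM or more in at least 4 libraries. It has 18 residual degrees of freedom, and two-sided p-values were Benjamini-Hochberg adjusted over all 11767 genes. There were 9 comparisons and 3 differences of EMB changes. The limma step was tested on simulated data.

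The members and gene lists were chosen with earlier results of these data known. All members are accounted for; full values were given for the largest called changes in each comparison and for a set list of main proteases and inhibitors. Replicate numbers in the titles pair the vertebral GFP- EMB+ and EMB- libraries, and GFP+ with GFP- libraries within EMB+ and within EMB-: same-numbered libraries deviated together in all 4 pairs (lowest correlations 0.135, 0.169 and 0.13). The alternatives were pseudocounts of 0.1 and 5, no filter, a filter of 5 FPKM, median-ratio and quantile scaling, fits of the compared groups alone, a replicate block, and leaving out each library or the 4 with conflicting labels. Leaving out hemoglobin genes was decided after seeing the data. A further overlap, beyond those given, is not reported here.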

Additional observations from a re-analysis of the deposited data

Results flagged for a closer look

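In 9 of the sets of 4 libraries examined (each of 32 tested members in each of 6 groups), 1 library lay far from the other 3; chance gives about 1 in 20. Mmp13 was 222 FPKM in vertebral GFP- EMB+ replicate 3 against 132 to 144 in the others, and Mmp9 was 36.3 in long bone EMB- replicate 1 against 8.75 to 12.8. Adamts2 was 15.6 FPKM in long bone EMB- replicate 4 against 26.5 to 27.4. In vertebral GFP- EMB- cells, Mmp14 was 83.7 FPKM in replicate 1 (others 69.9 to 71.7), Adamts17 15.3 in replicate 4 (19.4 to 20.2), Adamts5 0.701 in replicate 2 (0.489 to 0.503) and Adamts16 0.478 in replicate 3 (0.277 to 0.301). In vertebral GFP- EMB+ cells, Adamts9 was 1.02 FPKM in replicate 2 (1.61 to 1.67) and Adamtsl1 0.637 in replicate 4 (0.303 to 0.358).

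The change between EMB+ and EMB- cells differed between sources for the members below, by limma's test of the difference itself (log2 scale, adjusted p under 0.05). As vertebral GFP+ minus vertebral GFP- the differences were -1.68 for Mmp13, -1.53 for Timp1, -1.03 for Adamts2, -0.96 for Mmp23, -0.84 for Mmp2, -0.70 for Adamts9 and 1.20 for Mmp3.

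As vertebral GFP+ minus long bone they were below 0 for Adamts17 (-2.48), Adamtsl2 (-1.68), Timp4 (-1.37), Mmp23 (-1.14), Adamts4 (-1.06), Adamts9 (-0.84), Mmp16 (-0.84), Adamts2 (-0.82) and Mmp2 (-0.44). They were above 0 for Adamtsl5 (1.85), Adamtsl1 (1.48), Adamts3 (1.33), Adamts14 (1.11), Adamts15 (0.69) and Adamts5 (0.50). Those of Adamts15, Adamts5, Adamts2 and Mmp16 were lost without any of 17, 8, 3 and 2 libraries, and the first pair under both scalings.

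As vertebral GFP- minus long bone they were below 0 for Adamts17 (-2.84), Adamtsl2 (-2.31), Mmp3 (-1.69), Adamts4 (-1.11) and Timp4 (-0.91). They were above 0 for Mmp13 (2.17), Adamtsl5 (2.03), Adamts3 (1.68), Adamtsl1 (1.67), Adamts14 (1.63), Timp1 (1.58), Mmp14 (0.51), Adamts5 (0.48) and Mmp2 (0.39). The last pair was lost without any of 12 and 13 libraries, and both, with Mmp14, under both scalings.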

How the results depend on the processing

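FPKM gives no read depth, so how far depth limits low members is unknown. A filter of 5 FPKM left 17 members to test, and the count called fell to 8 for EMB in long bone, 8 for vertebral GFP+ against long bone EMB- cells, 13 for vertebral GFP- against long bone EMB- cells, and 8 and 8 for the differences of vertebral GFP+ and GFP- from long bone; fewer members were tested there. Fits of the compared groups alone called 3 members by GFP in EMB+ cells and 10 in EMB- cells, and the replicate block 1 in EMB+ cells. The direction turned for Mmp2 in the vertebral GFP+ EMB comparison with median-ratio scaling (-0.08), and with quantile normalization for Adamts5 in vertebral GFP+ against long bone EMB- cells (0.04) and for the Mmp2 difference between vertebral GFP- and long bone cells (-0.14). The cause was not tested.

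Leaving out each library in turn gave counts of 17 to 23, 17 to 21 and 15 to 19 members for EMB in vertebral GFP+, vertebral GFP- and long bone cells, 0 to 2 and 4 to 9 by GFP in EMB+ and EMB- cells, 18 to 18 and 14 to 17 for vertebral GFP+ against long bone in EMB+ and EMB- cells, 15 to 20 and 21 to 25 for vertebral GFP-, and 5 to 7, 12 to 17 and 12 to 15 for the 3 differences. Over all comparisons and differences, 145 calls were kept without each library, 29 were lost without at least 1, and 38 other changes became calls. In vertebral GFP+ cells the replicate numbers do not pair every library (correlations 0.0971 to 0.279; 3 of 4 libraries correlated best with their own number), and the block called 22 members in place of 20. Beyond the values given beside Timp1 and Adamts2, the replicate block lost 1 call and made 6 others.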
